A study of Mus musculus with 12 samples.

Results

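The Dlx homeobox genes are the mouse relatives of the fly gene Distal-less, and this is an account of the 6 of them, Dlx1 to Dlx6, in the main olfactory epithelium (MOE) of mice lacking the histone variant gene H2be. The members were found by gene symbol in the platform annotation. Each of the 6 genes had 1 probe set, none of which carried another symbol, and all 6 passed the filter of a mean log2 signal above 5 over the arrays, among 28151 of 28944 experimental probe sets that did so. The family was chosen because Dlx2 was lower in H2be-KO than in WT tissue in these same arrays. Differences between the genotypes in the 6 members are therefore given as a description. The intervals and the count of calls printed for them come from the fit over all probe sets and are no independent test of the family.

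Freshly dissected whole MOE gave the RNA, which was read on the Mouse Gene 1.0 ST platform. There were 6 H2be-KO arrays and 6 WT arrays, all from mice aged 6 months, and each array held RNA pooled from a pair of animals. H2be-KO mice are a knock-in line, on a C57Bl/6 cross, whose targeted locus makes the red membrane reporter GAP43-mCherry and no H2BE protein, whereas WT mice have an intact H2be. The gene is lost in every cell of the animal, the dissected tissue was not sorted, and per the series text both genotypes held males and females in equal mixture. In such bulk tissue, fewer cells of a type and less RNA per cell cannot be told apart.

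The homeodomain proteins made from these genes bind short AT-rich DNA sequences and act in the forebrain, the branchial arches, the limbs and the sensory placodes. In mammals the genes lie in pairs that face each other on a chromosome, and the members of a pair often share enhancers. Dlx1 and Dlx2, on chromosome 2, are known for the specification of GABAergic interneurons of the forebrain and olfactory bulb and for the patterning of the upper jaw. Dlx3 and Dlx4, on chromosome 11, are expressed in the placenta and branchial arches, and Dlx3 also acts in hair, teeth and bone. Dlx5 and Dlx6, on chromosome 6, are active in the olfactory placode, the lower jaw and bone, and mice without Dlx5 form olfactory axons that fail to innervate the bulb normally.

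The promoters of Dlx2 and Dlx1 are shown because Dlx2 chose the family and Dlx1 is its neighbour, and because these were the members matched in the promoter table used. Both sequences come from RefSeq on mouse build GRCm38.p6 and run 5′ to 3′ from 250 bases before the annotated start of the gene to 50 bases after it. The Dlx1 window is chr2:71529195-71529494 on the + strand and the Dlx2 window is chr2:71546705-71547004 on the - strand. Of the 6 members these 2 were matched, and Dlx3, Dlx4, Dlx5 and Dlx6 were not. Capitals mark matches, on either strand, to 5 short motifs, which were the E-box CACGTG, the CCAAT box, the cyclic AMP response element core TGACG, the homeodomain core TAATTA and the TATA box TATAAA.
Dlx1: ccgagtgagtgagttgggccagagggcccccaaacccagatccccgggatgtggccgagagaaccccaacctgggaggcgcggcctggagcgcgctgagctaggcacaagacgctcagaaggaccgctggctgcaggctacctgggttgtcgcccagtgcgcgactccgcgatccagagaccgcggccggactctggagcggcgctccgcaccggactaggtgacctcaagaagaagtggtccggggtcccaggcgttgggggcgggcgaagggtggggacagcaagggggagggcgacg
Dlx2: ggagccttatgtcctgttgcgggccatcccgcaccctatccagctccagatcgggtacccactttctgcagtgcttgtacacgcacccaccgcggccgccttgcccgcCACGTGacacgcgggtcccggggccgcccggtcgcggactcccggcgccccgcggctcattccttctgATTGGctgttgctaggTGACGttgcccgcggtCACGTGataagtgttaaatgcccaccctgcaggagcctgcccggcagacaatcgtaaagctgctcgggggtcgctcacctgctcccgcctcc
Both windows were rich in G and C, with 66.3% in Dlx2 and 69.3% in Dlx1, beside a median of 52.7% over 32851 mouse promoters. They held 29 CpG dinucleotides in Dlx2 and 27 in Dlx1, beside a median of 7. The Dlx2 window had CACGTG at 2 places, beginning 142 and 42 bases before the start, a motif held by 7.15% of all promoter windows of this length. It also had 1 CCAAT on the reverse strand, beginning 74 bases before the start and printed as ATTGG, and 1 TGACG beginning 58 bases before it. These are held by 37.4% and 20.8% of the promoters. The capitals of different motifs do not overlap in the sequence. The Dlx1 window had none of the 5 motifs, and neither window had TAATTA or TATAAA, which 5.29% and 13.6% of promoters hold. A match describes the letters and is not a site of binding.

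Over the series the arrays were alike, with median log2 signals of 7.84 to 7.90 and correlations between arrays of 0.951 to 0.985. Omp, the olfactory marker protein of mature olfactory neurons, averaged 12.90 ± 0.07 in H2be-KO arrays and 12.90 ± 0.07 in WT arrays (SD, n = 6 each, exact permutation p = 0.926). The probe set of H2be, annotated as H2bc21, read 11.51 to 11.84 in H2be-KO arrays and 11.63 to 12.12 in WT arrays (difference of -0.24, exact permutation p = 0.0195). The platform annotation does not say whether its probes lie in the replaced coding sequence or are shared with other H2B genes, so it does not check the genotype labels. Xist was high, at 11.39 to 11.67, in replicates 1 to 3 of each genotype and 0 to 3.89 in replicates 4 to 6, and 3 Y-linked probe sets averaged 1.61 to 2.28 and 9.35 to 9.71 in the same sets of arrays. Sex was not labelled per array, but by these signals replicates 1 to 3 read as female and replicates 4 to 6 as male in both genotypes. Each Dlx difference is also given within replicates 1 to 3 and within replicates 4 to 6, which hold both genotypes equally.

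Dlx2 was lower in every H2be-KO array than in any WT array. Its log2 signals were 7.09, 7.07, 6.53, 6.63, 6.63 and 6.98 in H2be-KO replicates 1 to 6, against 7.18, 7.42, 7.36, 7.44, 7.62 and 7.16 in WT replicates 1 to 6. H2be-KO replicate 1 was the nearest to the WT range, and WT replicates 1 and 6 were the lowest of their group. The means were 6.82 ± 0.25 in H2be-KO and 7.36 ± 0.17 in WT (SD, n = 6 each), a difference of -0.54 (limma standard error 0.12, 95% interval -0.79 to -0.29), a change in signal of -31.3% on the linear scale. The difference was -0.43 ± 0.17 within replicates 1 to 3 and -0.66 ± 0.18 within replicates 4 to 6 (± standard error, as in the values of these sets for the other members), and without any 1 of the 12 arrays it lay between -0.59 and -0.48. Its spread within genotypes, a residual SD of 0.21, was near the median of 0.20 over all probe sets tested.

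Dlx1, the partner of Dlx2 on chromosome 2, did not share this pattern in its values. It read 6.82, 6.79, 6.74, 6.94, 6.53 and 6.78 in H2be-KO replicates 1 to 6, against 7.04, 6.68, 6.54, 6.85, 6.72 and 6.24 in WT replicates 1 to 6. The highest and the lowest of the 12 values were both WT arrays, replicates 1 and 6, and all 6 H2be-KO values lay between them. The difference was 0.09 with a standard error of 0.12 and a 95% interval of -0.17 to 0.34, with 0.03 ± 0.14 within replicates 1 to 3 and 0.15 ± 0.20 within replicates 4 to 6. The antisense transcript of Dlx1, Dlx1as, which has a probe set of its own and is no member, averaged 5.98 ± 0.30 in H2be-KO and 6.09 ± 0.24 in WT (SD, n = 6 each), and the groups overlapped (exact permutation p = 0.517).

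**Figure D1:**
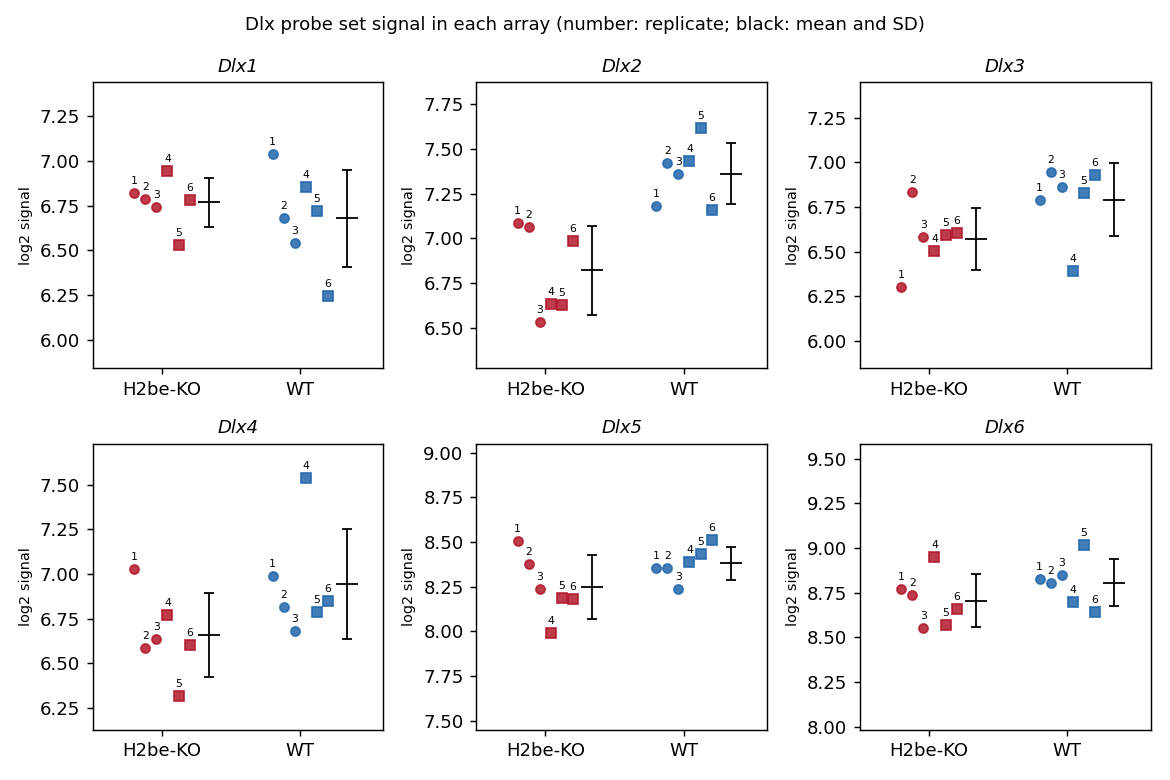
Log2 signal (y axis, a span of 1.6 in every panel) of each Dlx probe set in the 6 H2be-KO arrays (red) and the 6 WT arrays (blue), numbered by replicate, with circles for replicates 1 to 3, squares for replicates 4 to 6, and the group mean and SD in black. The groups are apart in the panel of Dlx2, at 6.53 to 7.09 and 7.16 to 7.62, and overlap in the other 5.

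On chromosome 11, Dlx3 and Dlx4 were both lower on average in H2be-KO, with groups that overlapped. Dlx3, a regulator of epidermal and hair differentiation, read 6.30, 6.83, 6.58, 6.50, 6.60 and 6.60 in H2be-KO replicates 1 to 6, against 6.79, 6.94, 6.86, 6.39, 6.83 and 6.93 in WT replicates 1 to 6. WT replicate 4 was the exception in its group, 0.40 below the next WT array and below 5 of the H2be-KO arrays. The difference was -0.22 with a standard error of 0.11 (95% interval -0.45 to 0.01), with -0.29 ± 0.15 within replicates 1 to 3 and -0.15 ± 0.18 within replicates 4 to 6.

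Dlx4, known from placenta and branchial arches, read 7.03, 6.58, 6.63, 6.77, 6.32 and 6.60 in H2be-KO replicates 1 to 6, against 6.99, 6.82, 6.68, 7.54, 6.78 and 6.85 in WT replicates 1 to 6. The highest array in each group was H2be-KO replicate 1 and WT replicate 4, the arrays that were lowest for Dlx3. In all, 4 H2be-KO arrays were under the lowest WT array. The difference was -0.29 with a standard error of 0.14 (95% interval -0.59 to 0.02). It was -0.08 ± 0.15 within replicates 1 to 3 and -0.49 ± 0.22 within replicates 4 to 6, and the difference between these sets was not tested. Without WT replicate 4 the Dlx4 difference was -0.17.

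On chromosome 6, the values of Dlx5 and Dlx6 differed least between genotypes among the members with a lower mean in H2be-KO. Dlx5, which acts in olfactory placode and bone, read 8.51, 8.38, 8.24, 7.99, 8.19 and 8.18 in H2be-KO replicates 1 to 6, against 8.36, 8.36, 8.23, 8.39, 8.43 and 8.51 in WT replicates 1 to 6. The difference over all arrays was -0.13 with a standard error of 0.09 (95% interval -0.33 to 0.06). It was 0.06 ± 0.11 within replicates 1 to 3 and -0.32 ± 0.15 within replicates 4 to 6. H2be-KO replicates 1 and 2 were the highest of their group and replicate 4 the lowest. The difference between these sets was not tested.

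Dlx6, a partner of Dlx5 in lower jaw patterning, read 8.77, 8.74, 8.55, 8.95, 8.57 and 8.66 in H2be-KO replicates 1 to 6, against 8.83, 8.80, 8.85, 8.70, 9.02 and 8.64 in WT replicates 1 to 6. The second highest of the 12 arrays was H2be-KO replicate 4, which was the lowest for Dlx5. The difference was -0.10 with a standard error of 0.09 (95% interval -0.29 to 0.09). It was -0.14 ± 0.11 within replicates 1 to 3 and -0.06 ± 0.17 within replicates 4 to 6.

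**Figure D2:**
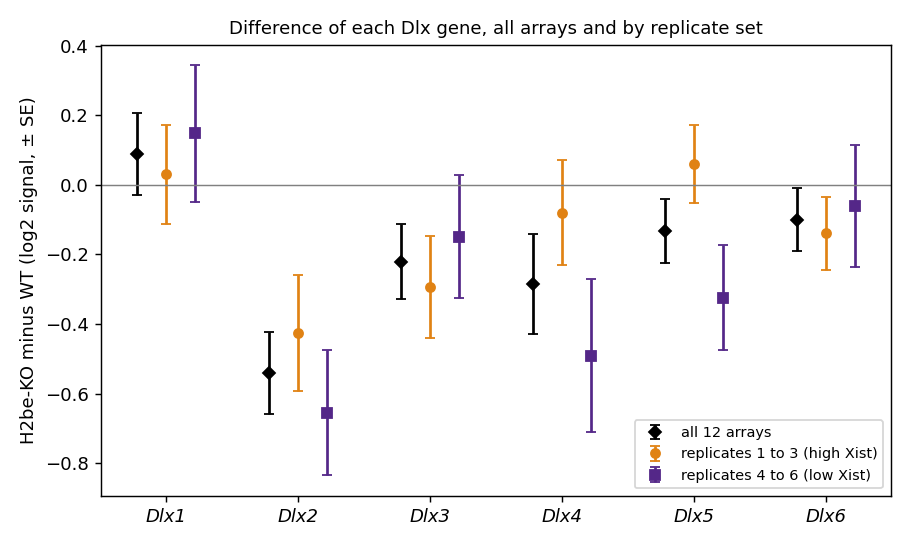
H2be-KO minus WT difference in log2 signal (y axis, with the standard error as the bar) of the 6 Dlx genes (x axis) over all 12 arrays (black), within replicates 1 to 3 (orange) and within replicates 4 to 6 (purple). Dlx2 is at -0.54, -0.43 and -0.66 in these sets, while Dlx5 is at -0.13, 0.06 and -0.32.

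Among the 6 members, 5 had a negative difference and 1 (Dlx1, which was at -0.02 with array weights) a positive one, and the median was -0.18. Over all 28151 probe sets tested, 43.8% had a negative difference, the median was 0.02 and the quartiles were -0.07 and 0.12. At an unadjusted limma p under 0.05, 1 of 6 members (Dlx2) was lower and 0 were higher, where 1.77% of all probe sets were called lower and 3.78% higher. All 6 H2be-KO arrays were under the lowest WT array for 1 of 6 members, and for 0.0888% of all probe sets. Since Dlx2 was the reason for choosing the family, both counts restate the choice, and nothing is read from them. Dlx3 and Dlx4 lay near the threshold. With array weights 4 members were called lower (Dlx2, Dlx3, Dlx4 and Dlx6, beside 4.99% of all probe sets), and the Dlx6 difference itself was then -0.17 (standard error 0.08). With a replicate block 3 were called lower (Dlx2, Dlx3 and Dlx4, beside 3.38%). After median centring Dlx2 and Dlx3 were called (beside 2.48%). Besides Dlx2, Dlx3 was called without H2be-KO replicate 2 (beside 2.24% of all probe sets) or WT replicate 4 (1.11%). Dlx4 was called without H2be-KO replicate 1 (beside 2.33%) or WT replicate 3 (2.03%). After Benjamini-Hochberg adjustment of the limma p-values over all probe sets, 0 were called at 0.05 in either direction, with a smallest adjusted p of 0.572, while 1065 probe sets were higher and 498 lower at an unadjusted p under 0.05. That split depended on the scaling, with 827 higher and 899 lower after quantile normalisation and 815 higher and 699 lower after median centring, under both of which the signs of the 6 members were kept. It also moved with single arrays, to 2265 higher and 1552 lower without WT replicate 6 and to 513 higher and 323 lower without H2be-KO replicate 5.

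How the members varied together was asked within genotypes, on each array's deviation from its genotype mean, a measure that leaves out the difference that chose the family. These deviations were not adjusted for sex. None of the 15 pairs was correlated at an adjusted p under 0.05 (permutation within genotype, Benjamini-Hochberg over 15 pairs), and Pearson's r ran from -0.84 to 0.53. At an unadjusted p under 0.05 there was 1 pair by Pearson's r and 2 by Spearman's rho. Dlx3 and Dlx4 had the largest r in size, with r = -0.84 (permutation p = 0.0070, adjusted p = 0.105) and rho = -0.73 (permutation p = 0.0144, adjusted p = 0.108) over 12 arrays. Without the arrays farthest from the median of Dlx3, H2be-KO replicate 1 and WT replicate 4, r was -0.25. Without H2be-KO replicate 1 alone r was -0.79, and without WT replicate 4 alone it was -0.64. Leaving out the extremes of Dlx3 narrows its range, so the smaller r cannot show that the relation rested on those 2 arrays. Each of them was high for Dlx4 and low for Dlx3, as given above.

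Dlx1 and Dlx4 had r = 0.53 and rho = 0.72 (permutation p = 0.138 and 0.0131, adjusted p = 0.619 and 0.108), with r = 0.77 without the 2 arrays farthest from the median of Dlx1. The chromosome 2 neighbours Dlx1 and Dlx2 had r = 0.19 and rho = 0.43 (permutation p = 0.523 and 0.163, adjusted p = 0.713 and 0.408), and r was 0.25 without the 2 farthest arrays. For the chromosome 6 neighbours Dlx5 and Dlx6, r was -0.23 and rho was -0.10 (permutation p = 0.521 and 0.764, adjusted p = 0.713 and 0.932). Without the 2 arrays farthest from the median of Dlx5, r was 0.25, the opposite sign.

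**Figure D3:**
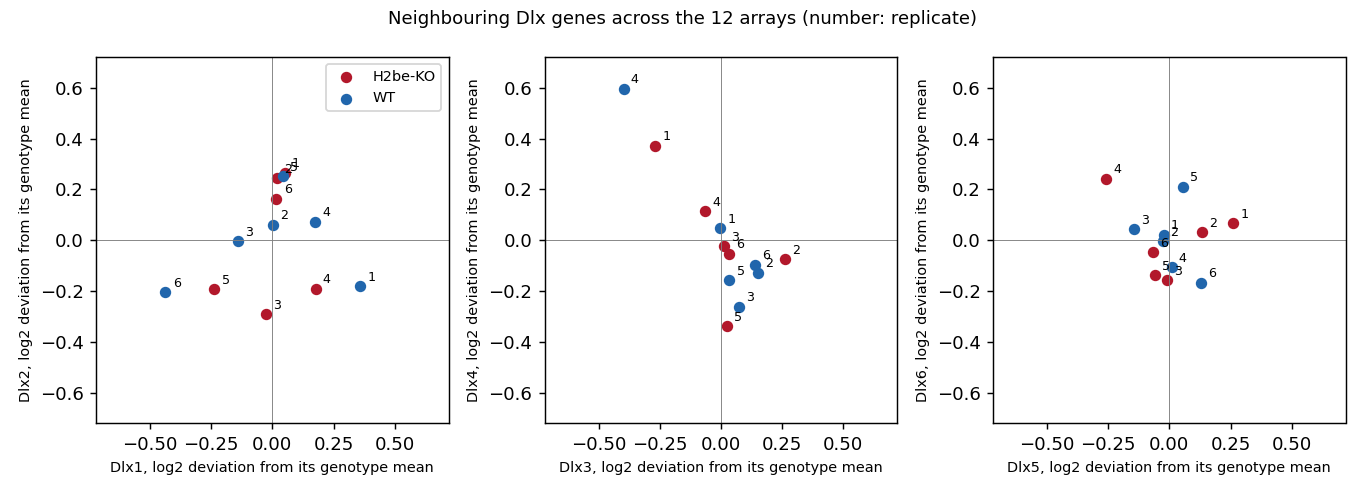
Deviation of each array from its genotype mean, in log2 signal, for the neighbours Dlx1 and Dlx2, Dlx3 and Dlx4, and Dlx5 and Dlx6 (first gene on the x axis, second on the y axis), in H2be-KO arrays (red) and WT arrays (blue) numbered by replicate. In the middle panel WT replicate 4 and H2be-KO replicate 1 lie apart at the upper left, and r is -0.84 with them and -0.25 without them.

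The probe sets most like each member, by Pearson's r of these deviations over 12 arrays, were picked from 28151 as the highest values and are a description. For Dlx2 they were Krt74, a hair-follicle keratin (r = 0.94), Pga5, a pepsinogen (0.93), and Gpr62, an orphan receptor (0.92). For Dlx1 they were Ryr1, the calcium release channel of skeletal muscle (0.93), Bricd5 (0.91) and Morn3 (0.91). Dlx3 was nearest to Col5a2, a fibrillar collagen (0.91), Ero1b, an oxidase of the endoplasmic reticulum (0.88), and Zfp688 (0.87). Dlx4 was nearest to the kinase gene Pak4 (0.93), the mitochondrial carrier Slc25a18 (0.92) and Dcaf5 (0.92).
Dlx5 was nearest to the odorant receptor Olfr1424 (0.91), the mitochondrial tRNA ligase Cars2 (0.91) and Mroh2a (0.91), and Dlx6 to Cdh3, P-cadherin (0.93), the fatty acid amide hydrolase Faah (0.90) and Ap5s1 (0.90). No gene stood in the leading 3 of more than 1 member, and no other Dlx gene did.

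The genes that lie next to the pairs on the chromosomes gave no calls. Of the 18 protein-coding genes that are the nearest 3 on each side of each pair in the RefSeq order, 17 had a probe set with 1 symbol that was tested, and Rapgef4 did not. None was called at an unadjusted limma p under 0.05 in either direction, beside 3.78% higher and 1.77% lower over all probe sets, and their differences ran from -0.20 to 0.19 with a median of 0.05. Beside Dlx1 and Dlx2, Metap1d, a mitochondrial aminopeptidase, averaged 8.39 ± 0.13 in H2be-KO and 8.31 ± 0.17 in WT, and Itga6, an integrin subunit, averaged 7.92 ± 0.40 in H2be-KO and 8.03 ± 0.38 in WT (SD, n = 6 each). Hat1, a histone acetyltransferase, had the highest difference, 0.19 (exact permutation p = 0.0779), and Itga3, beside Dlx3 and Dlx4, the lowest, -0.20 (exact permutation p = 0.0801).

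Genes of the pathways in which the family acts, and other homeobox genes of its class, were read in 5 lists. Of 122 probe sets tested 0 were higher and 5 lower at an unadjusted limma p under 0.05, with a median difference of -0.04. The other homeobox genes, which are no pathway, held 42 of these probe sets and 3 of the lower calls. Over all probe sets 3.78% were higher and 1.77% lower, the shares beside which the counts of every list here stand. After quantile normalisation or median centring, 8 of the 122 were lower and 0 higher, beside 3.19% and 2.48% lower over all probe sets. Without WT replicate 6 there were 11 lower and 2 higher, beside 5.51% and 8.05% over all. Without H2be-KO replicate 2 there were 3 lower and 1 higher, beside 2.24% and 2.97%. Among 27 probe sets of the forebrain GABAergic programme, which Dlx1 and Dlx2 serve in the brain, 0 were called and the median was 0.01. Gad1, the main GABA-synthesising enzyme, averaged 7.64 in H2be-KO and 7.62 in WT, and its partner Gad2 read 7.74 to 8.14 in H2be-KO arrays and 7.75 to 8.12 in WT arrays. Six3, a forebrain and placode regulator, had the smallest limma p of the list (difference of -0.18, exact permutation p = 0.0368, limma adjusted p = 0.753). Of 24 probe sets of BMP and MSX signalling, which acts upstream of and beside Dlx genes in the jaw and teeth, 0 were called and the median was -0.02. Its 4 smallest limma p-values ran both ways. Bmpr1b, a BMP receptor, was at 8.56 in H2be-KO and 8.32 in WT (p = 0.0801 by exact permutation), and Smad9, which carries the BMP signal, at 7.77 in H2be-KO and 7.92 in WT (p = 0.0368 by exact permutation). Msx3 was at 7.39 in H2be-KO and 7.63 in WT (p = 0.0606 by exact permutation), while Msx1 was at 7.29 in H2be-KO and 7.14 in WT (p = 0.0779 by exact permutation).

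Of 20 probe sets of placode and olfactory transcription factors 1 was called, which was Foxi1, a forkhead factor of the otic placode and of ionocytes (difference of -0.20, exact permutation p = 0.0455, limma adjusted p = 0.753), and the list's median was -0.004. Of 12 probe sets of Dlx partners and jaw patterning genes 1 was called, the neural POU factor Pou3f3. It averaged 6.01 in H2be-KO and 6.43 in WT (difference of -0.42, exact permutation p = 0.0173, limma adjusted p = 0.753), and the list's median was -0.06. Other homeobox genes of the large ANTP class, to which the Dlx genes belong (NK-like genes, with Gbx, Evx and Mnx genes among them), had 3 lower calls and 0 higher among 42 probe sets and a median of -0.09. The calls were Nkx6-1, a regulator of neural tube and pancreatic fates (means of 6.73 in H2be-KO and 7.09 in WT, p = 0.00866 by exact permutation), Gbx1 (means of 6.65 in H2be-KO and 6.90 in WT, p = 0.0216 by exact permutation) and the midbrain gene En2 (means of 6.12 in H2be-KO and 6.43 in WT, p = 0.0519 by exact permutation). Across all of them the limma adjusted p was 0.753.

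**Figure D4:**
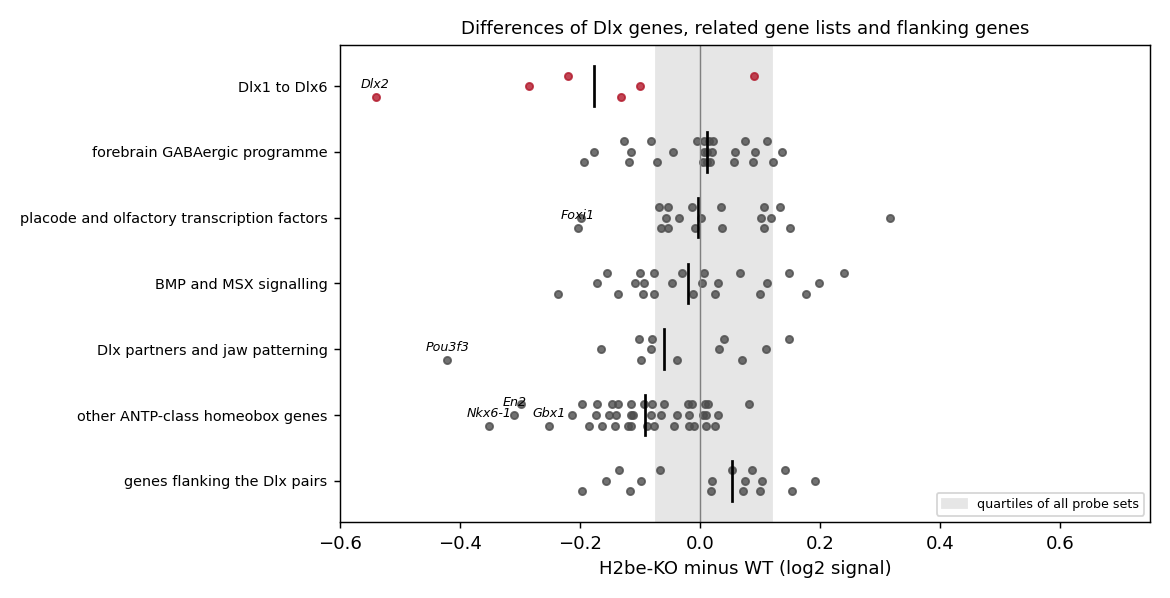
H2be-KO minus WT difference in log2 signal (x axis) of the 6 Dlx genes (red), the genes of 5 related lists and the genes flanking the Dlx pairs (grey), each dot 1 gene and each black bar the row's median, over the range between the quartiles of all probe sets (shaded, -0.07 to 0.12). Names mark Dlx2 and the list genes with an unadjusted limma p under 0.05, all 5 of them lower in H2be-KO.

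Dissected MOE can hold other tissue that uses Dlx genes, and the levels of its markers are set beside the Dlx results. For 10 probe sets of osteoblasts and bone matrix, the mean log2 signal was 8.83 to 9.08 in H2be-KO arrays and 8.51 to 9.10 in WT arrays, with a median difference of 0.10. In that list 1 was called higher, Mepe, an osteocyte matrix protein (means of 6.15 in H2be-KO and 5.74 in WT, p = 0.0584 by exact permutation, limma adjusted p = 0.753), and 0 lower. Dlx3 and Dlx5 are bone genes, and the list's mean had r = 0.67 with Dlx3 and 0.19 with Dlx5 within genotypes over 12 arrays, which share tissue and normalisation. Cartilage markers averaged 6.63 to 7.96 in H2be-KO arrays and 6.56 to 7.97 in WT arrays, with 0 of 10 called and a median of -0.16.

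Markers of enamel and tooth averaged 6.18 to 7.29 in H2be-KO arrays and 6.03 to 6.70 in WT arrays, with a median of -0.04. Of 9 probe sets 0 were called higher and 1 lower, the enamel protease Mmp20 (means of 5.90 in H2be-KO and 6.36 in WT, p = 0.0779 by exact permutation, limma adjusted p = 0.753). Amelx, the enamel matrix gene amelogenin, read 11.87 and 11.66 in H2be-KO replicates 1 and 6 and 5.11 to 6.03 in the other 10 arrays. Dlx2 read 7.09 and 6.98 in those 2 arrays and 7.07 in H2be-KO replicate 2, its 3 highest H2be-KO values, and Amelx read 5.7 in replicate 2. The enamel list's mean, which includes Amelx, had r = 0.71 with Dlx2 within genotypes, and r without the 2 arrays was not computed. The next highest r of a list with Dlx2 were 0.68 for the other homeobox genes and 0.53 for the forebrain GABAergic programme. Without the 2 arrays of high Amelx the Dlx2 difference was -0.65 ± 0.13 (standard error). The part of tooth tissue in the Dlx2 values of the other arrays was not tested. Ambn, another enamel matrix gene, had 2 H2be-KO arrays above every WT array and 3 below every WT array. It read 4.58 to 6.91 in H2be-KO arrays and 4.96 to 6.06 in WT arrays.

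The per-array means of all 18 lists, markers of the olfactory cell types included, had ranges that overlapped between genotypes. The counts of calls stand beside 3.78% higher and 1.77% lower over all probe sets. Every gene named as called in the cell-type lists, here and below, had a limma adjusted p of 0.753. Mature olfactory neurons had 0 of 17 probe sets called (means of 10.82 to 11.07 in H2be-KO arrays and 10.92 to 10.99 in WT arrays, median 0.03). Immature olfactory neurons had 2 of 13 called higher and 0 lower (9.58 to 9.93 in H2be-KO arrays and 9.60 to 9.83 in WT arrays, median 0.11), which were the factor Nhlh2 (difference of 0.37, exact permutation p = 0.0368) and the growth-cone gene Gap43 (0.25, exact permutation p = 0.0455). The H2be-KO allele itself carries a short stretch of Gap43 coding sequence, and its part in that probe set was not tested. Within genotypes the immature list's mean had r = 0.81 with Dlx5 and 0.31 with Dlx2. The value for Dlx5 was the highest r of any of the 18 lists with any member. No r of a list with a member was adjusted for sex, whose part in them was not tested. Neuronal progenitors had 2 of 11 called higher and 0 lower (8.13 to 8.47 in H2be-KO arrays and 7.98 to 8.31 in WT arrays, median 0.11), which were Gadd45g (difference of 0.29, exact permutation p = 0.0108) and the cycling gene Top2a (0.32, exact permutation p = 0.0801).

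Among the other cell types, horizontal basal cells had 1 of 10 called lower, Itgb4 (difference of -0.26, exact permutation p = 0.0325), with means of 8.26 to 8.76 in H2be-KO arrays and 8.21 to 8.92 in WT arrays and a median of -0.09. Olfactory ensheathing glia had 1 of 9 called higher, Fabp7 (0.22, exact permutation p = 0.0303), with means of 8.68 to 8.96 in H2be-KO arrays and 8.71 to 8.82 in WT arrays and a median of 0.08. Stroma and vessels had 2 of 11 called higher, the pericyte gene Rgs5 (0.26, exact permutation p = 0.0152) and the proteoglycan Lum (0.24, exact permutation p = 0.00866), with means of 9.56 to 9.77 in H2be-KO arrays and 9.55 to 9.72 in WT arrays and a median of 0.06. The glial and stromal means were the ones with the most negative r with Dlx2 within genotypes, -0.62 and -0.65. Sustentacular cells (0 of 10, median 0.02), Bowman's and nasal glands (0 of 12, median 0.01), respiratory epithelium (0 of 11, median -0.01) and macrophages (0 of 10, median 0.03) had no calls. The part of any of these cell types in the Dlx differences was not tested.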

How the data were processed

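The study measured RNA from whole MOE of H2be-KO and WT mice on Mouse Gene 1.0 ST arrays. The authors looked for outlying scans with arrayQualityMetrics, summarised probes by IterPLIER and applied sketch-quantile normalisation in Affymetrix Expression Console, as the study's methods state. Their versions are not given in the sources used here. Log2 signals of 35556 probe sets in 12 arrays were deposited. Since they were normalised across arrays, a difference shared by most transcripts would have been removed. Background was not measured here, so how far a Dlx signal lies above it is unknown. Signals of different probe sets are not comparable, and genes were not ranked by level. List means average several probe sets and were read across arrays only. Arrays hold no molecule counts, so precision is limited by their number.

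Sample titles gave the groups, and all 12 arrays were used. The labels do not say whether the pools came from separate litters, so p-values measure the spread between these samples. At most 0.0276% of probe sets had the same value in any pair of arrays. From the platform's numbering 6612 controls were recognised and left out. A mean log2 above 5 was required for testing (28151 probe sets). Names came from the platform annotation and gene order from RefSeq (GRCm38.p6).

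Genotype was fitted as the only term with limma 3.58.1 in R 4.3.3 (lmFit, eBayes), with Benjamini-Hochberg adjustment over all probe sets. The fit was first tested on simulated arrays of this design. Where a gene other than a member is given a permutation p, it is two-sided and exact. It runs over the 924 choices of 6 of 12 arrays, without regard to sex, and its smallest possible value is 0.0022. Correlations between members used 100000 permutations within genotype. The alternatives were other filters, a floor of 5, quantile normalisation, median centring, a replicate block, a Y-linked covariate, moderation with a trend and robustly, weighted arrays, symbol averages and leaving out each array.

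The members and lists (5 of pathways and other homeobox genes, 3 of hard tissue, 10 of cell types of the epithelium) were chosen with earlier results of these data known. Genes were named by rule, which took the members, H2be, the 3 probe sets most like each member, up to 4 genes of each list with the smallest limma p, and the defining marker of a cell type. Gad1, Gad2, Metap1d, Itga6, Hat1, Itga3, Amelx, Ambn and Dlx1as were named in addition, after their values were seen.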

Additional observations from a re-analysis of the deposited data

Results flagged for a closer look

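Both values that stood out came from 1 array, WT replicate 4. For Dlx4 it read 7.54, which was 0.55 above the next WT array, and this gap was 0.64 of the whole range of the 6 WT values. The other 5 WT arrays read 6.68 to 6.99. For Dlx3 the same array read 6.39, which was 0.40 below the next WT array, a gap of 0.72 of the range, and the other 5 read 6.79 to 6.94. A gap above 0.625 of the range of 6 arrays was taken as far from the others. Among 16 groups of 6 arrays looked at (the 6 members, Dlx1as and H2bc21 in each genotype), these 2 were past it, where chance flags about 1 in 20. Without this array the Dlx3 difference was -0.30 and the Dlx4 difference was -0.17.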

How the results depend on the processing

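The Dlx2 difference was negative under all 25 alternatives, from -0.66 to -0.43. Its sign could not change when arrays were left out, since every H2be-KO array lay under every WT array, so nothing is read from that sign. Other filters, the floor of 5, the replicate block, moderation with a trend and robustly, and symbol averages left every member's difference as it was. Dlx3, Dlx4 and Dlx6 kept their sign, at -0.30 to -0.15, -0.49 to -0.08 and -0.17 to -0.06. Leaving out 1 array gave -0.59 to -0.48 for Dlx2, -0.30 to -0.17 for Dlx3, -0.36 to -0.17 for Dlx4, -0.18 to -0.08 for Dlx5, -0.15 to -0.06 for Dlx6 and 0.001 to 0.16 for Dlx1. Dlx5 was at 0.060 in replicates 1 to 3 and -0.32 in replicates 4 to 6, sets added after seeing the data, as was leaving out the arrays with high Amelx. At an unadjusted limma p under 0.05, 1 member was lower as reported, beside 1.77% of all probe sets. Members lower numbered 4 with array weights (beside 4.99%), 2 after median centring (2.48%) and 2 without the arrays of high Amelx (1.59%). With 1 array left out they numbered 1 to 2 (beside 1.11% to 5.51%). The counts over all probe sets at an unadjusted limma p under 0.05, 1065 higher and 498 lower, were 2694 and 1405 with array weights. Averaging by gene symbol gave 624 higher, and quantile normalisation 899 lower. Leaving out 1 array gave 513 to 2265 higher and 313 to 1552 lower, with the lowest counts without H2be-KO replicate 5 (513 higher) and WT replicate 4 (313 lower) and the highest without WT replicate 6. In the 5 lists of pathway and other homeobox genes, 0 higher and 5 lower became 3 and 11 with array weights, beside 9.57% higher and 4.99% lower over all probe sets. There were 8 lower after quantile normalisation (beside 3.19%) and 8 after median centring (2.48%). With trend and robust moderation there were 1 higher and 3 lower, beside 4.28% and 1.57%. Leaving out 1 array gave 0 to 2 higher and 3 to 11 lower (11 without WT replicate 6), beside 1.82% to 8.05% and 1.11% to 5.51%. The number of correlated Dlx pairs was 0 to 1 when 1 array was left out, the call being Dlx3 and Dlx4 without H2be-KO replicate 2 (r = -0.91) or 5 (r = -0.90). The cause of these changes was not tested. With the replicate number as a block, 3 members were lower, Dlx2 (-0.54, standard error 0.13), Dlx3 (-0.22, 0.09) and Dlx4 (-0.29, 0.11). The counts over all probe sets were then 2039 higher (7.24%) and 951 lower (3.38%), and in the lists of pathway and other homeobox genes 2 were higher and 6 lower. Same-numbered arrays correlated in their deviations by 0.59, 0.39, 0.32 and 0.38 in replicates 2, 3, 4 and 6, and by 0.09 and 0.03 in replicates 1 and 5. The labels name no pairs, and the correlation was not over 0.1 in every number, so the main fit has no pairing. By their Xist and Y-linked signals, same-numbered arrays of both genotypes read as the same sex. The deviations were taken from the genotype mean, so sex stayed in them. The part of sex in these correlations, and what else the arrays share, was not tested.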
